A study of Mus musculus with 7 samples.

Results

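Among naive double-negative T cells of the mouse spleen, 4050 of 10497 cell barcodes carried at least 1 UMI of Fcer1g and at least 1 UMI of Cd7. They are described here as Fcer1g+ Cd7+ cells, and they were set against the 6447 other kept barcodes of the same 2 libraries. A UMI is a molecular tag that counts a captured RNA molecule once. Kept barcodes had at least 200 genes, at most 10% mitochondrial UMIs, no UMI of the B cell gene Cd79a and at most 1 UMI of the macrophage gene Lyz2. The members were therefore chosen by the measured values of Fcer1g and Cd7. Levels of those genes are given as a description, and no gene tested below took part in the rule.

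Single-cell RNA libraries were made with 10x Chromium 3′ kits from spleen T cells of 8-week-old male C57BL/6 mice. All cells were sorted as CD3+ NK1.1- TCRαβ+ TCRγδ-. Naive double-negative T cells (naive DNT) also lacked CD4 and CD8 and did not bind aGal-CD1d or LPC-CD1d, reagents that mark natural killer T (NKT) cells. They gave 2 libraries, replicate 1 with kit v2 and replicate 2 with kit v3. Activated DNT cells (2 libraries, also 1 per kit) were obtained by stimulating naive DNT cells in culture, through CD3 and CD28 with antibodies and with IL-2 at 20 ng/ml, over 3 days. CD8 T cells, CD4 T cells and the TCRαβ+ gate before the CD4 and CD8 split (TCRab) gave 1 kit v2 library each. The mice were unmodified, and the labels do not say how many were pooled or whether both replicates of a group came from different animals beyond calling them biological replicates, so p-values measure the spread between these libraries only.

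Fcer1g encodes FcRγ, a small signalling chain with an activation motif that pairs with Fc receptors and with natural killer (NK) receptors, and that can also stand in for CD3ζ in T cell receptor complexes. CD7 is a surface immunoglobulin-family protein of T cells, NK cells and their precursors. In the mouse, T cells of the innate-like kind, such as CD8αα+ intraepithelial lymphocytes, are known for FcRγ together with NK receptors of the Ly49 and NKG2 families. Ly49 proteins bind class I MHC molecules, and CD94 pairs with NKG2 chains to bind the non-classical class I molecule Qa-1.

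Fcer1g+ Cd7+ barcodes made up 40.4% of kept barcodes in naive DNT replicate 1 (1604 of 3972, exact 95% binomial interval 38.9% to 41.9%). In naive DNT replicate 2 they made up 37.5% (2446 of 6525, 36.3% to 38.7%). The same gate took in 12.2% of kept barcodes of activated DNT replicate 1 and 24.2% of activated DNT replicate 2. It took in 0.938% of TCRab (40 barcodes), 0.775% of CD8 (36 barcodes) and 0.200% of CD4 barcodes (10 barcodes). Intervals here and below cover counting error only. When every barcode was thinned to 1500 UMIs the gated share was 18.4% and 11.2% in naive DNT, 1.51% and 6.60% in activated DNT, 0.402% in TCRab, 0.281% in CD8 and 0.0603% in CD4. The naive DNT shares lay above those of every other library before and after thinning.

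**Figure D1:**
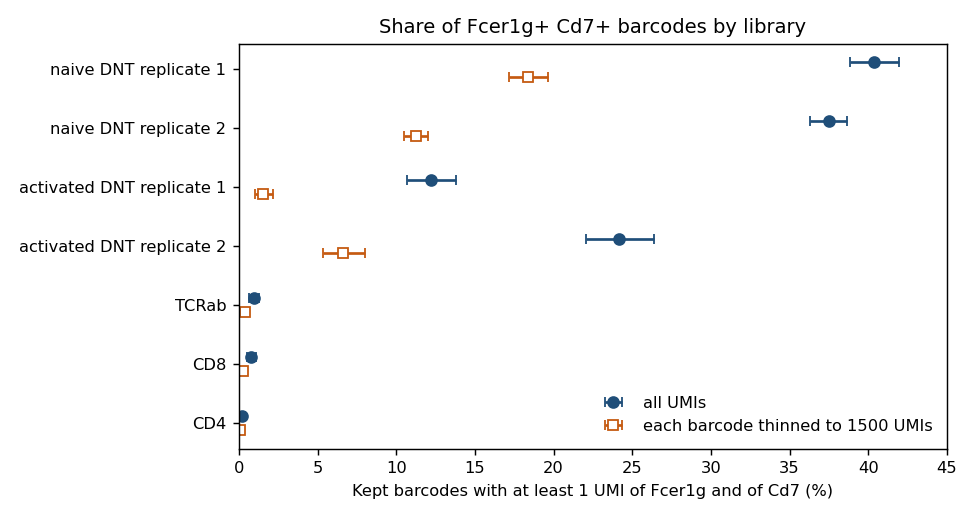
Share of kept barcodes (x axis, %) with at least 1 UMI of Fcer1g and of Cd7 in each of the 7 libraries, with all UMIs (circles) and after thinning each barcode to 1500 UMIs (squares). Bars are exact 95% binomial intervals for counting error; both naive DNT libraries, at 40.4% and 37.5%, lie right of all others.

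Levels are given as CPM, UMIs of a gene scaled to a common total of all UMIs. In replicate 1 the members held 634 CPM of Fcer1g and 863 CPM of Cd7, and the other barcodes 58.2 and 342 CPM. In replicate 2 the members held 468 and 643 CPM, and the others 26.2 and 262 CPM. Detection of the 2 genes went together: 83.85% and 88.5% of barcodes with an Fcer1g UMI also had a Cd7 UMI in replicates 1 and 2, against 59.4% and 63.1% of barcodes without one. Many members sat at the limit of the rule, since 181 and 135 members had exactly 1 UMI of each gene. Just outside it lay 475 and 755 barcodes with exactly 1 Cd7 UMI and no Fcer1g, and 182 and 153 with exactly 1 Fcer1g UMI and no Cd7. The members were slightly deeper, with a median of 4201 UMIs against 4056 for the others in replicate 1, and 8035 against 7266 in replicate 2. Mitochondrial shares were close (median 2.57% in members and 2.51% in others of replicate 1, 4.70% and 4.84% in replicate 2). One barcode sequence was shared between the 2 naive DNT libraries.

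The labelled cell type was checked first. Cd3e, a chain of the CD3 complex, was detected in 80.05% of members and 79.9% of others in replicate 1, and in 96.2% of members and 93.9% of others in replicate 2. Cd4 was detected in 0% (0 of 1604, exact 95% interval up to 0.230%) and 0.0409% of members, against 0.0422% and 0.0490% of others, and Cd8a in 0.187% and 0.327% of members, against 0.464% and 0.221% of others. Cd8b1 was at 33 and 40 UMIs in members, against 229 and 237 UMIs in others. In replicate 2, whose reference alone holds T cell receptor constant genes, Trac stood at 669 CPM in members and 667 CPM in others, and Trdc, the δ chain constant gene, at 25.0 CPM in members and 45.8 CPM in others. Both classes thus carried the RNA of the labelled αβ double-negative T cells.

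Members were compared with the other barcodes of their own library by summing UMIs per library and class, which gave 4 sums, and testing 11183 genes with edgeR's quasi-likelihood F test with the library as a block. At an adjusted p under 0.05 (Benjamini-Hochberg, over all genes tested), 638 genes (5.71% of those tested) rose in the members and 714 (6.38%) fell. All list counts below stand against these shares, and the lists were chosen with earlier results of these data known. The genes leading the rise encode NK receptors (Klra1, Klra7, Klre1, Klrd1, Klrc2, Klrk1), the adaptor Tyrobp, the chemokine Xcl1, the receptor Cd160 and the signalling inhibitor Spry2. Leading the fall were the transcription factor genes Maf, Eomes, Pou2f2, Egr1 and Klf4, the chemokine receptor Ccr2, the costimulatory receptor Icos and Slamf7. The 15 largest rises and the 15 largest falls were taken from genes with the same direction in both libraries. Without the block the same test called 0 genes in either direction (324 genes at an unadjusted p under 0.05), and DESeq2 with the block called 159 rises and 188 falls. Each library gave 1 sum per class, since cells are not replicates, and the fit had 1 residual degree of freedom and a biological coefficient of variation of 0.0556.

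**Figure D2:**
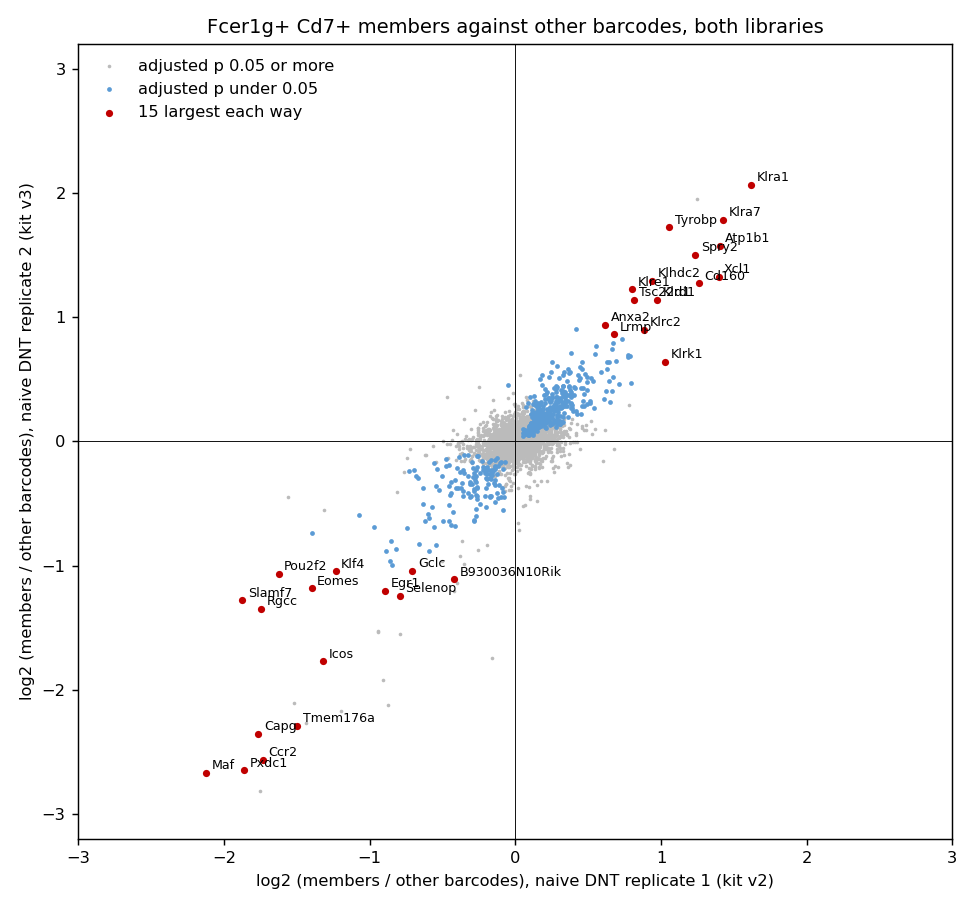
Log2 ratio of Fcer1g+ Cd7+ members over other barcodes in naive DNT replicate 1 (x axis) and replicate 2 (y axis) for 3213 genes with a mean level of at least 5 on the log2 CPM scale. Blue points passed an edgeR adjusted p of 0.05 and red points are the 15 largest rises and falls, from Maf at -2.12 and -2.67 to Klra1 at 1.62 and 2.07; 4 hemoglobin genes and S100a8 and S100a9 lie outside the axes.

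Ly49 receptor genes showed the largest rise among the named genes of at least 5 mean log2 CPM. Levels below are CPM after edgeR's trimmed-mean scaling (scaled CPM), with replicate 1 before replicate 2. Klra1, which encodes Ly49A, stood at 161 and 95.9 scaled CPM in members, against 52.2 and 22.5 in others. Its log2 difference was 1.89 ± 0.12 (SE from the edgeR F statistic, 2 libraries, edgeR adjusted p = 0.000755). Such an SE, here and below, is not the spread between the ratios of the 2 libraries. Klra7, which encodes Ly49G, stood at 370 and 156 scaled CPM in members and 138 and 44.8 in others (log2 difference 1.62 ± 0.10, edgeR adjusted p = 0.000778). Both genes were lower in replicate 2 than in replicate 1 in members as in others. Klra3 rose by 1.32 on the log2 scale. Klra6 differed by 1.64 and Klra9 by 1.23, and neither passed (edgeR adjusted p = 0.192 and 0.0602). The Ly49 genes are near-identical copies, so reads can be split or lost among them and the single-gene values are uncertain. Counted as a family, at least 1 Ly49 UMI was found in 70.3% and 72.2% of members, against 36.6% and 30.7% of others. After thinning to 1500 UMIs the shares were 47.6% and 37.0% of members, against 21.8% and 12.1% of others.

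Genes of the CD94 and NKG2 group rose as well. Klrd1, encoding CD94, was at 878 and 423 scaled CPM in members, against 447 and 192 in others, which is 2.08-fold (edgeR adjusted p = 7.86e-09). Klrc2, encoding NKG2C, was at 61.3 and 78.2 scaled CPM in members and 33.0 and 41.7 in others. Klrc1, encoding the inhibitory NKG2A, rose by 0.47 on the log2 scale, and Klrc2 by 0.90. The Klrc genes are close copies as well, so reads can be split between them. Klrk1, encoding NKG2D, stood at 462 and 252 scaled CPM in members and 226 and 162 in others. Klre1, which pairs with Klri chains, rose 2.09-fold. These genes and the Ly49 genes lie in one cluster on chromosome 6, and 6 of the 15 largest rises fall within it, from Klre1 at chr6:129577905-129585827 to Klra1 at chr6:130363917-130386874 (GRCm38, GENCODE vM21).

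Among 28 tested NK-type receptor genes 15 rose and 3 fell, with a median log2 difference of 0.99 against 0.00 over all genes. Klrb1a and Cd244 had the largest relative rises. Klrb1a, a receptor gene of the NKR-P1 family, was at 31.1 and 20.7 scaled CPM in members, against 4.10 and 2.64 in others (7.75-fold, edgeR adjusted p = 4.07e-09). Cd244, the receptor 2B4 for CD48, was at 14.1 and 10.6 scaled CPM in members, against 3.50 and 2.01 in others. Klrb1c, which encodes the NK1.1 antigen that the sort excluded on the surface, was low in both classes and rose, with 23.5 and 13.9 scaled CPM in members and 11.95 and 8.54 in others. The 3 that fell were Slamf7, Klrg1 and Klrb1b. Cd160, a receptor for HVEM and class I MHC, was at 311 and 213 scaled CPM in members and 129 and 87.7 in others (log2 difference 1.27 ± 0.05, edgeR adjusted p = 4.42e-10). Cd160 was detected in 57.2% and 75.8% of members, against 29.4% and 39.8% of others.

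NK cell markers moved in both directions. Of 11 tested NK markers 5 rose and 3 fell, with a median log2 difference of 0.56. The list's summed level was 545 and 632 CPM in members against 592 and 613 CPM in others, of which Txk, a kinase gene also expressed in T cells, made up 269 and 362 CPM in members and 355 and 403 CPM in others. Ncr1, the gene that defines NK cells best in this list, had 1 and 50 UMIs in all members, against 0 and 11 in all others. As CPM this was 0.142 and 2.37 in members against 0 and 0.358 in others, higher in members but very low. Eomes, the NK cell T-box factor, fell, while Tbx21, its relative T-bet, rose to 28.6 and 28.7 scaled CPM in members, against 19.3 and 20.7 in others. When only barcodes with a Cd3e, Cd3d or Cd3g UMI were kept, 634 genes rose and 715 fell.

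Promoters of 4 genes are shown here: Fcer1g, which chose the members, and Klra1, Xcl1 and Cd160, which are among the genes that rose. They run from 250 bases before to 50 bases after the start of a RefSeq transcript (GRCm38.p6) and are written 5′ to 3′ on the gene's strand. Capitals mark TGTGGT or its reverse complement ACCACA, the core letters that RUNX factors bind.
Fcer1g, chr1:171234300-171234599, minus strand: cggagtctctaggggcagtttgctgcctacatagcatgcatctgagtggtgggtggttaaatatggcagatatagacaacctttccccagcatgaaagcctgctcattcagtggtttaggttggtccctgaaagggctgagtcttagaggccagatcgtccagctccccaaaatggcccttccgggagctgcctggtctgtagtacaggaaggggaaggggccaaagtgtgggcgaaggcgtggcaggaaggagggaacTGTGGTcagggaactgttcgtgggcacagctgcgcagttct
Klra1, chr6:130386825-130387124, minus strand: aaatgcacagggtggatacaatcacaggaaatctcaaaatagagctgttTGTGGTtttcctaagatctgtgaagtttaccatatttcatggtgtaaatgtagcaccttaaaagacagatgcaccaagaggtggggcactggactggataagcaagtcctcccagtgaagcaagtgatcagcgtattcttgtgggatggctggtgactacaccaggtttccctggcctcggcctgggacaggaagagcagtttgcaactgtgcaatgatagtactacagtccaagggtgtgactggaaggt
Xcl1, chr1:164935473-164935772, minus strand: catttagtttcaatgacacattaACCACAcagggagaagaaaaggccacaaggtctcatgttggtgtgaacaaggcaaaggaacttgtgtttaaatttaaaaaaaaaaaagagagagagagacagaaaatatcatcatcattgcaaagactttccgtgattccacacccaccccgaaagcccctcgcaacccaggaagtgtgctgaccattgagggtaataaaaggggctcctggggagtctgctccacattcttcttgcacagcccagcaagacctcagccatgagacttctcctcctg
Cd160, chr3:96829302-96829601, minus strand: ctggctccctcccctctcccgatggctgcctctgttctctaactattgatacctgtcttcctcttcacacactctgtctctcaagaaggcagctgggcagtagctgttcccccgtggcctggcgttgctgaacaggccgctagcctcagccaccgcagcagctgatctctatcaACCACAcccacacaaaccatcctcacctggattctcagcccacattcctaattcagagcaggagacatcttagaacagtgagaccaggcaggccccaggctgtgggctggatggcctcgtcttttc

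Each of the 4 windows holds the letters once, starting at base 10 after the Fcer1g start and at 201, 227 and 76 bases before the starts of Klra1, Xcl1 and Cd160. The genes shown all hold a match, whereas no window of Klra7, Atp1b1, Spry2, Klhdc2 or Anxa2, which also rose, holds one. Of the 15 largest rises 12 had a RefSeq promoter, and in 7 of them (58.3%) at least 1 promoter held the letters on either strand: Klra1, Xcl1, Cd160, Klre1, Tsc22d1, Klrc2 and Klrk1. Of the 15 largest falls 10 had a promoter and 1 held them, Pou2f2. The share over tested genes with a promoter was 15.5% (1346 of 8669). In all, 4 motifs were searched and this one was chosen for display after its matches were seen. AGGTGT, the T-box core, was in 0 of the 12 rises (12.6% of tested genes). CCGGAAG, the ETS core, was in 1 (22.3%), and GGGTGTG, a KLF site, was in 4 (9.87%). Several of the matching genes are related copies, a gene with more listed starts has more chances of a match, and a match of 6 letters is a description, not a bound site. Among RUNX factor genes, Runx3 rose by 0.27 on the log2 scale and Runx1 fell by 0.60.

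Signalling genes of NK cells and T cells moved in both directions. Tyrobp, encoding the adaptor DAP12 that activating Ly49 and NKG2C receptors use, stood at 72.2 and 38.8 scaled CPM in members, against 34.4 and 11.4 in others (log2 difference 1.47 ± 0.19, edgeR adjusted p = 0.0214). It was detected in 15.9% and 16.03% of members and in 7.60% and 3.68% of others. The Ly49 genes that rose were not divided into activating and inhibitory ones here, so the rise of Tyrobp is not tied to theirs. Lat2, an adaptor known from B cells, mast cells and NK cells, rose 2.36-fold, and Plcg2, the phospholipase of the same cells, rose 2.80-fold from very low levels. Lat and Plcg1, the T cell counterparts of these 2 genes, fell. Lat was at 348 and 175 scaled CPM in members, against 512 and 283 in others, and Plcg1 fell by 0.59 on the log2 scale. Themis and Sh2d1a, which tune T cell receptor and SLAM receptor signals, fell by 0.46 and 0.30. The CD3 chain gene Cd3d rose by 0.12, while Cd3e and Cd3g differed by -0.04 and 0.06 and did not pass. In this list of 19 tested genes, of the T cell receptor complex and adaptors, 6 rose, 4 fell and 9 did not pass. Its median log2 difference was 0.02, so the list as a whole did not shift.

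Xcl1, encoding a chemokine that attracts cross-presenting dendritic cells, was at 387 and 242 scaled CPM in members and 147 and 96.5 in others, 2.57-fold (edgeR adjusted p = 4.42e-10). Ccl5 was the most abundant chemokine transcript, with 18942 and 7220 scaled CPM in members and 11374 and 4080 in others. Ccl4 rose by 0.71 on the log2 scale. Cytokine genes of the helper types fell from low levels: Il4 stood at 0.883 and 0.317 scaled CPM in members against 4.47 and 7.13 in others, and Il17a, Il22, Csf2, Tnf and Tnfsf11 fell too. Ifng differed by 0.06 and did not pass (edgeR adjusted p = 0.850). Over 20 tested cytokine and chemokine genes 5 rose and 6 fell, against 5.71% and 6.38% of all genes tested.

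Cytotoxic genes were mixed, with 6 of 16 higher and 3 lower in members, against 5.71% and 6.38% of all genes tested. Nkg7, a granule membrane protein gene, was at 1846 and 934 scaled CPM in members against 1435 and 625 in others, and Ctsw, encoding a cathepsin of cytotoxic lymphocytes, rose 1.63-fold. Gzmb, Gzmk and Fasl fell, Gzmk to 4.59 and 0.712 scaled CPM in members against 22.2 and 5.13 in others. Prf1, the perforin gene, differed by -0.12 and did not pass. Gzma rose by 0.56 on the log2 scale, yet a Gzma UMI was found in 2.49% and 2.09% of members and in 2.53% and 2.30% of others. Few barcodes carried most of it: 5 members per library, with both a Ly49 and an NKG2 UMI, held 395 of 536 and 456 of 742 Gzma UMIs.

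The IL-2 and IL-15 receptor β chain gene Il2rb was at 326 and 415 scaled CPM in members and 201 and 265 in others (1.59-fold, edgeR adjusted p = 1.68e-07). Il2ra, the α chain that gives high affinity for IL-2, was nearly absent from members at 0.706 and 3.21 scaled CPM, against 5.07 and 18.1 in others. Il2rg and Il7r did not pass, with log2 differences of -0.07 and -0.08. Receptors of the type 17 cytokine system fell from low levels, Il23r by 2.33, Il1r1 by 2.29 and Il17re by 2.60 on the log2 scale. In replicate 1 they had 2, 2 and 13 UMIs in members and 12, 21 and 83 in others. Over 24 tested cytokine receptor genes 7 rose and 9 fell, against 5.71% and 6.38% of all genes tested. The survival gene Bcl2 was at 463 and 278 scaled CPM in members and 299 and 178 in others, and Bcl2l11, which encodes its antagonist BIM, rose as well (log2 difference 0.60). Bcl2a1d fell by 2.23. Over 15 genes of the BCL2 family and of survival 4 rose and 2 fell.

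Of 35 tested transcription factor genes 5 rose and 12 fell, against 5.71% and 6.38% of all genes tested. Helios, encoded by Ikzf2 and known from regulatory and self-reactive T cells, was at 492 and 458 scaled CPM in members, against 309 and 264 in others (1.67-fold, edgeR adjusted p = 7.47e-08). Foxp3 was not among the tested genes. Maf had the largest fall among the named genes of at least 5 mean log2 CPM, at 6.36 and 11.3 scaled CPM in members against 29.3 and 74.5 in others (log2 difference -2.63 ± 0.11, edgeR adjusted p = 5.13e-09). Zbtb16, encoding the NKT cell factor PLZF, fell by 2.14. Bcl11b, which maintains T cell identity, was at 66.2 and 92.3 scaled CPM in members and 123 and 171 in others. Eomes was at 37.6 and 26.4 scaled CPM in members and 100 and 60.5 in others (edgeR adjusted p = 3.37e-08). Tcf7 and Klf2, genes of resting T cells, rose by 0.19 and 0.22.

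Most tested markers of other innate-like T cells were lower in the members. All 7 tested type 17 markers fell, with a median log2 difference of -2.38. All 5 tested γδ T cell markers fell, at a median of -2.40, and 5 of 7 NKT markers fell, among them Il4, Zbtb16, Icos and Cd40lg, while Klrb1c of the same list rose. Blk counts in both of the first 2 lists. Some of these markers had few UMIs in replicate 1: Il17a 0 in members and 10 in others, Sox13 2 and 12, and 5830411N06Rik 1 and 11. Blk, at 27 and 136, and Maf, at 36 and 243, had more. Icos was at 22.4 and 36.4 scaled CPM in members and 56.7 and 125 in others (edgeR adjusted p = 2.97e-06), and was detected in 6.30% and 21.3% of members against 12.4% and 36.4% of others. The other barcodes are a mixture of cell kinds, and how much of each fall comes from their makeup was not tested.

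Of 27 immediate early and receptor signal genes 9 fell in members, among them Fos, Fosb, Jun, Egr1 and Nr4a1, and 3 rose, Spry2, Rgs1 and Rgs2. Receptor signalling itself was not measured. Nr4a1, a gene that T cell receptor signals can induce, was at 26.5 and 74.1 scaled CPM in members against 40.2 and 137 in others. Spry2 went the other way, at 106 and 80.4 scaled CPM in members and 44.7 and 28.0 in others (2.66-fold, edgeR adjusted p = 3.04e-08), while its relative Spry1 fell by 2.03. Of 24 interferon response genes 0 rose and 8 fell, and 16 did not pass. Over all genes tested 5.71% rose and 6.38% fell. Coinhibitory receptor genes fell in 4 of 15 cases (Ctla4, Lag3, Cd5 and Cd6), and Cd96 rose. Of 16 costimulatory receptor genes 3 rose, Cd2, Cd48 and Tnfrsf18, and 5 fell.

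Homing and adhesion genes split: of 25 tested integrin, chemokine receptor and adhesion genes 6 rose and 7 fell, and of 20 genes of the resting state and lymphoid homing 7 rose and 4 fell. The shares over all genes tested were 5.71% and 6.38%. Ccr2, a receptor for inflammatory recruitment, was at 11.7 and 9.86 scaled CPM in members and 39.8 and 60.8 in others (edgeR adjusted p = 0.00184), and the gut homing receptor Ccr9 and Ccr6 fell by 2.94 and 2.45. Cxcr3 and the integrin genes Itga1, Itga2 and Itga4 rose. Ccr7, the lymph node homing receptor, fell by 0.55, and S1pr1, needed to leave lymphoid tissue, rose by 0.23. Dividing cells were few in both classes: Mki67 stood at 1.24 and 1.74 scaled CPM in members and 2.05 and 9.91 in others, and 9 of 20 proliferation genes fell and 1 (H2afz) rose. After thinning to 1500 UMIs 13 of those genes could be tested and 2 fell. Cytosolic ribosomal protein genes rose in 19 of 20 cases, by a median of 0.12 on the log2 scale, but DESeq2 with the block called 4 of the 20. When the rule was applied after thinning, Rpl13, Rpl23, Rpl32 and Rps14 fell (Rpl13 by 0.09, Rpl32 by 0.12) and Rps18, at -0.06, did not pass.

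**Figure D3:**
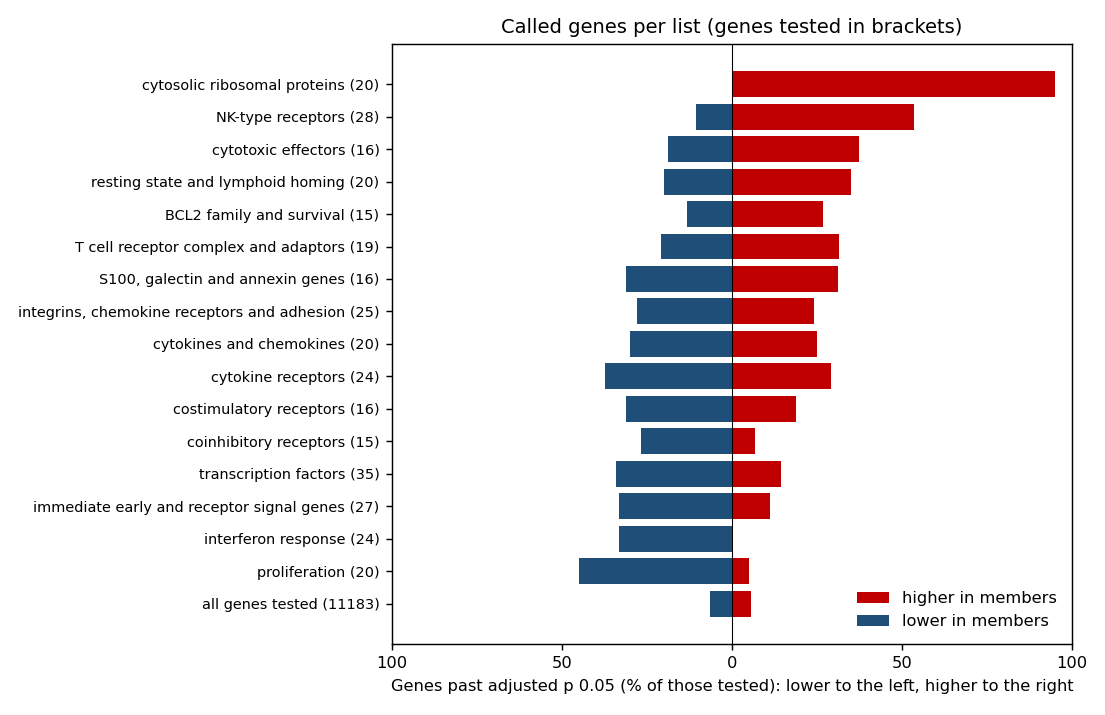
Percent of tested genes in each of 16 lists, and in all 11183 genes (bottom row), that passed an edgeR adjusted p of 0.05 and were higher (right, red) or lower (left, blue) in Fcer1g+ Cd7+ members than in other barcodes. NK-type receptors (15 of 28) and ribosomal protein genes (19 of 20, but 4 of 20 with DESeq2) lead to the right, interferon response (0 of 24) has no gene to the right.

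Other genes among the largest differences do not belong to one pathway. Atp1b1, a subunit of the sodium pump, was at 69.2 and 66.5 scaled CPM in members and 25.8 and 22.0 in others (log2 difference 1.53 ± 0.08, edgeR adjusted p = 8.29e-09). Klhdc2, which directs proteins to degradation, Lrmp, a membrane protein gene of lymphocytes, and Anxa2, an annexin, rose by 1.14, 0.80 and 0.79 on the log2 scale. Pxdc1 was at 12.2 and 15.002 scaled CPM in members, against 45.6 and 96.6 in others. Capg, which caps actin filaments, was at 29.0 and 18.6 scaled CPM in members, against 99.5 and 96.9 in others (edgeR adjusted p = 0.00245). Tmem176a, known from type 17 and myeloid cells, fell by 2.08, and Rgcc, a cell cycle regulator, by 1.49. Selenop, B930036N10Rik and Gclc, which makes the first step of glutathione synthesis, fell by 1.07, 1.02 and 0.995. In the S100, galectin and annexin list of 16 genes 5 rose and 5 fell.

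A few barcodes with RNA of other cell types carried single differences. Of 5 tested B cell markers 4 rose, all of them class II genes of antigen-presenting cells (Cd74 by 1.44 on the log2 scale, H2-Aa by 1.55), but 4 member barcodes of replicate 1 and 8 of replicate 2 with at least 5 class II UMIs held 77.75% and 79.6% of the members' class II UMIs. Without such barcodes the differences were -0.40 for Cd74 and -0.06 for H2-Aa, and 648 genes rose and 746 fell. Hemoglobin stood at 296 and 258 CPM in members against 6226 and 1231 CPM in others, and 1 and 2 member barcodes and 14 and 7 other barcodes had at least 50 hemoglobin UMIs. Without those it stood at 249.5 and 12.5 CPM in members and 255 and 14.7 CPM in others. None of the 4 hemoglobin genes passed the test, while the red cell gene Alas2 fell, and without barcodes of at least 50 hemoglobin UMIs 719 genes rose and 828 fell.

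The separate parts of the gate were examined by sorting the other barcodes into those with Fcer1g only (309 and 318), Cd7 only (1223 and 2374) and neither gene (836 and 1387). These are levels in CPM without scaling, described and not tested. Barcodes with Fcer1g only carried neutrophil RNA, with 322.5 and 239 CPM of S100a8 against 59.2 and 0.520 CPM in members, and its part in the levels of this class was not tested. Of the 15 largest rises 14 were highest in the members in each library, and 13 and 14 were lowest in barcodes with neither gene. The exception in both libraries was Tyrobp, which myeloid cells also express, at 57.9 and 46.3 CPM in members and 69.1 and 109 CPM with Fcer1g only. Klra1 was at 129 and 115 CPM in members, 75.1 and 42.4 with Fcer1g only, 47.5 and 32.5 with Cd7 only and 24.7 and 14.7 with neither. Xcl1 was nearer to the member level with Fcer1g only (216 and 272 CPM, against 311 and 290 in members) than with Cd7 only (128 and 109). Of the 15 largest falls 13 and 11 were lowest in the members, and 8 and 6 were highest in barcodes with neither gene. Among the genes that fell, those below were chosen after the values were seen. Slamf7 was at 22.1 and 25.0 CPM in members and 37.2 and 24.2 with Cd7 only. It was at 65.4 and 48.8 CPM with Fcer1g only and 179 and 147 with neither, so its low level in replicate 2 was not particular to the members. Maf was low wherever Fcer1g was found, at 5.10 and 13.5 CPM in members and 8.92 and 25.3 with Fcer1g only, and high without it, at 32.0 and 97.0 with Cd7 only and 19.2 and 96.5 with neither. Ccr2 and Icos were likewise lower in both classes with Fcer1g than in both classes without it. Eomes was low wherever Cd7 was found, at 30.2 and 31.5 CPM in members and 45.6 and 30.6 with Cd7 only, and higher without it, at 73.6 and 71.9 with Fcer1g only and 155 and 165 with neither. Rgcc was lower with either gene than with neither, at 33.4 and 112 CPM in members, 87.7 and 164 with Fcer1g only, 92.2 and 255 with Cd7 only and 178.5 and 401 with neither. Barcodes with neither gene were also the shallowest, with medians of 3493 and 6458 UMIs against 4201 and 8035 in members.

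**Figure D4:**
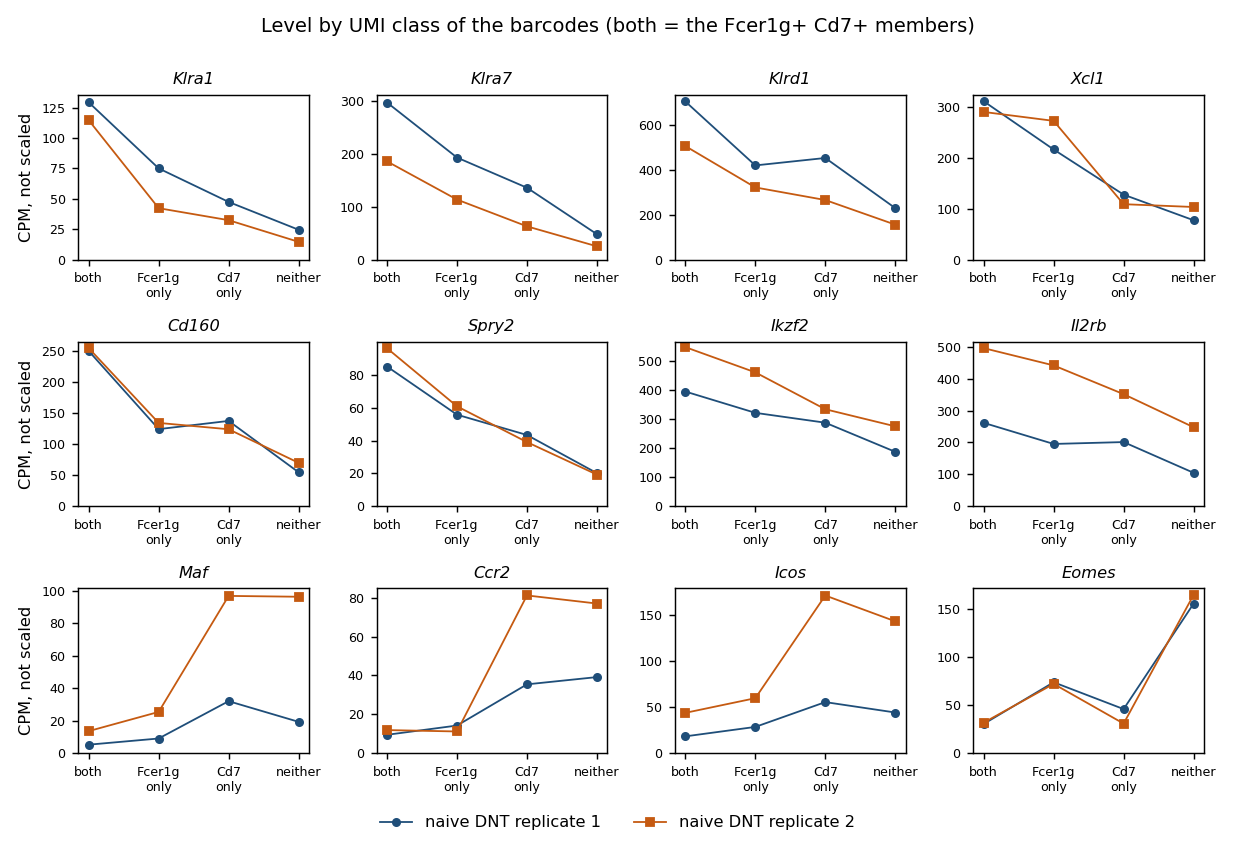
Unscaled level (y axis, CPM) of 12 genes in members with both genes and in barcodes with Fcer1g only, Cd7 only or neither (x axis), in naive DNT replicate 1 (blue circles) and replicate 2 (orange squares). Klra1 runs down from 129 and 115 in members to 24.7 and 14.7 with neither gene, and Eomes is lowest where Cd7 was found.

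The members were not uniform. By Fcer1g UMIs, members with 4 or more (421 and 1071 barcodes) had 213 and 165 CPM of Klra1, against 90.7 and 50.5 CPM in members with 1 (580 and 565 barcodes), at like depth in replicate 1 (medians of 4161 and 4226 UMIs) and at 8199 and 7714 UMIs in replicate 2. Tyrobp ran alike, at 97.8 and 77.0 CPM with 4 or more and 34.9 and 14.3 with 1. Not every rise ran so in both libraries. Klrc2 was at 37.4 and 90.7 CPM with 4 or more and 46.9 and 86.3 with 1, and Spry2 at 76.4 and 119 against 79.8 and 66.6. Fcer1g is a gene of the rule, so these values are a description. Maf was at 3.21 and 12.04 CPM with 4 or more Fcer1g UMIs and 7.36 and 21.7 with 1.

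Receptor detection divided the members further, in a split chosen after values had been seen. Both a Ly49 and an NKG2 (Klrc1 or Klrc2) UMI were found in 20.6% and 30.4% of members, against 9.21% and 11.3% of others. A Ly49 UMI alone was found in 49.6% and 41.9% of members (27.4% and 19.5% of others), an NKG2 UMI alone in 6.30% and 9.89% (7.86% and 13.5%) and neither in 23.4% and 17.9% (55.6% and 55.8%). Within members, Klre1 was at 184 and 164 CPM with both receptors, against 68.7 and 54.6 with Ly49 alone and 26.9 and 15.95 with neither. Tsc22d1, a TGF-β-induced leucine zipper gene, ran the other way: 14.6 and 23.4 CPM with both and 15.5 and 16.9 with NKG2 alone, against 43.9 and 71.2 with Ly49 alone and 48.0 and 96.3 with neither. Gzma was at 312 and 84.7 CPM in members with both receptors and at 3.84 and 2.41 with neither, but it came from 11 and 27 barcodes, of which 5 held 395 of 493 and 456 of 624 UMIs. Depth differed between the subsets, with medians of 4598 and 8860 UMIs with both receptors and 3873 and 7157 with neither, and its part in detection was not tested.

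**Figure D5:**
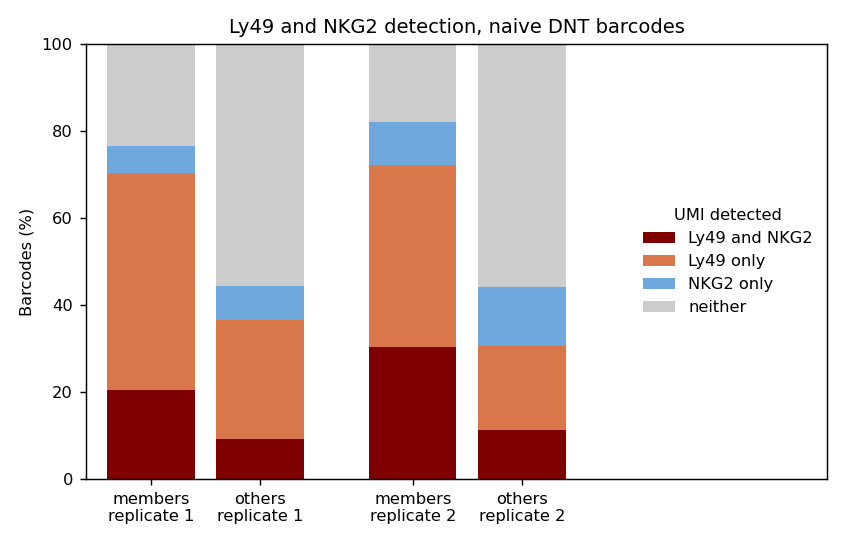
Percent of naive DNT barcodes (y axis) with a UMI of both a Ly49 and an NKG2 gene, of Ly49 only, of NKG2 only or of neither, in Fcer1g+ Cd7+ members and in the other barcodes of each library. Neither receptor was found in 23.4% and 17.9% of members, against 55.6% and 55.8% of others.

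The same gate was applied in libraries that had no part in choosing the 15 rises and falls. Each comparison holds 1 library, so no test was made, and a gene counted as different at 2-fold or more if its higher value reached 20 CPM. In the CD8 and TCRab libraries the others are not sorted DNT cells, so the contrast differs from that in naive DNT. In the CD8 library 36 gated barcodes were set against 4608 others. Cd8a was detected in 61.1% of the gated barcodes and 87.6% of the others, and Cd8b1 in 66.7% of the gated barcodes and 98.7% of the others, so the gated barcodes carried less CD8 RNA than the rest of the library. Among the 15 rises, 14 of which reached 20 CPM, 13 were at least 2-fold higher in the gated barcodes (11.1% of 4372 genes were) and 0 lower (4.87% were). Klra1 was at 102 CPM in gated CD8 barcodes against 1.47 in the others, Xcl1 at 229 against 16.7 and Ikzf2 at 418 against 13.9, a ratio of 30.02 (exact conditional 95% interval 23.3 to 38.3). In the TCRab gate 40 gated barcodes were set against 4226 others, and 12 of the 15, of which 14 reached 20 CPM, were at least 2-fold higher (12.1% of 4702 genes) and 0 lower (6.70%). Klrd1 was at 559 CPM in gated TCRab barcodes against 111 in the others, a ratio of 5.05 (4.13 to 6.12). Of the 15 falls 5 reached 20 CPM in the CD8 library, where 1 was 2-fold higher and 1 lower, and 9 in TCRab, where 4 were higher and 3 lower. These counts rest on few UMIs, since the gated barcodes held 196859 UMIs in CD8 and 197925 in TCRab. Of the 40 gated TCRab barcodes, the genes counted as higher were found in 1 (Klf4), 2 (B930036N10Rik) or 3 (Ccr2, Tmem176a). Those counted as lower were found in 2 (Icos, Pou2f2) or 6 (Rgcc), so no reversal is read from them. The 10 gated CD4 barcodes are too few for such counts, and Klra1 had 2 UMIs in them.

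In activated DNT cells differences of 2-fold were fewer, although 11 and 9 of the 15 rises were higher by any amount in replicates 1 and 2, and 10 and 13 of the 15 falls were lower. In activated replicate 1 (218 gated barcodes) 0 of the 15 rises, 10 of which reached 20 CPM, were at least 2-fold higher (0.481% of 4365 genes were), and 0 of the 15 falls, 11 of which did, were at least 2-fold lower (0.137% were). In activated replicate 2 (370 gated barcodes; 12 of the rises and 11 of the falls reached 20 CPM) Atp1b1 was the 1 rise that was at least 2-fold higher (0.836% of 5500 genes), and Maf, Capg, Tmem176a, Icos and Rgcc were at least 2-fold lower (1.36%). Klra7 was at 76.9 and 99.3 CPM in gated activated barcodes against 41.5 and 56.4 in the others, ratios of 1.85 and 1.76. Ikzf2 was at 116 and 212 CPM in gated activated barcodes against 72.7 and 116 in the others. Xcl1 was high in both classes after activation, at 3750 and 5089 CPM in gated and 4039 and 5193 CPM in other barcodes. Gated activated barcodes were shallower than the others, with medians of 14481 against 15959 UMIs and 8424 against 9751 UMIs. They held 102 and 248 CPM of Cd7, and 130 of 218 and 122 of 370 had exactly 1 Cd7 UMI. The other activated barcodes had an Fcer1g UMI in 50.8% and 36.0% of cases, against 13.05% and 7.80% in naive DNT. The gate thus divided activated barcodes differently, and its part in the smaller differences was not tested. An Fcer1g UMI was found in 48.2% and 42.4% of naive DNT barcodes, against 56.8% and 51.5% of activated DNT barcodes. A Cd7 UMI was found in 71.2% and 73.9% of naive DNT barcodes, against 18.5% and 35.5% of activated DNT barcodes.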

How the data were processed

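The 7 libraries were deposited by the authors as raw UMI counts per gene and barcode, without normalization. Per the submitters' processing notes, Cell Ranger 2.1.0 and 3.0.1 and the mm10 build were used, and version 3.0.2 is named in the kit v3 matrices per the file headers. The kit v2 reference holds 27998 genes and the v3 reference 31053, and the 27514 gene IDs in both were used, so T cell receptor constant genes were seen in kit v3 libraries only. No doublet caller was run. The barcodes with the top 5% of UMIs were left out as an alternative. Kept barcodes held 16973908 and 52153580 UMIs in the naive DNT libraries and 18183768 to 34450930 in the others.

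UMIs were summed per library and class and tested with edgeR 4.0.16 (R 4.3.3, limma 3.58.1): filterByExpr, TMM, robust glmQLFit and glmQLFTest, with the library as a block, which was the design fixed for the main fit because both sums of a library come from the same sort and kit. Fcer1g, Cd7, Cd79a, Lyz2 and mitochondrial genes, which the rule used, were left out of the test. DESeq2 1.42.0 was an alternative. Barcodes were thinned with a fixed seed of 1. The fit was also run on simulated counts whose dispersion was set by hand, not estimated from these libraries. That run is therefore no check of the p-values given here. Named genes were the 15 largest rises and falls past the threshold with a mean of at least 5 log2 CPM and the same sign in both libraries, and from each list up to 6 called members and up to 2 others by level. A few of these genes are not reported here. The members and the lists were chosen with earlier results of these data known. Sums, shares and figures came from Python 3.11.15 with pandas 2.3.3, SciPy 1.17.1, NumPy 2.4.6 and matplotlib 3.10.9. Gene positions are from GENCODE vM21, on the same build as the files, and promoters from RefSeq.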

Additional observations from a re-analysis of the deposited data

Results flagged for a closer look

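For 5 of the 30 genes with the largest differences, both naive DNT libraries went one way and both activated DNT libraries the other. These differences between naive and activated cells were not tested. The 30 genes share a direction in both naive DNT libraries by their choice. How many genes reverse over all genes was not counted, so the count of 5 has no background beside it. Naive differences are from scaled CPM and activated differences from unscaled CPM. In activated cells the gate also met lower Cd7 levels, as given above. Xcl1 was higher in gated naive DNT barcodes by 1.40 and 1.32 on the log2 scale (replicates 1 and 2), against differences of -0.107 and -0.029 in activated DNT barcodes. Cd160 was higher by 1.26 and 1.27 in gated naive DNT barcodes, against -0.135 and -0.066 in activated ones. Lrmp was higher by 0.68 and 0.86 in gated naive DNT barcodes, against -0.225 and -0.090 in activated ones. Eomes was lower in gated naive DNT barcodes, at -1.40 and -1.18, against 0.180 and 0.409 in activated ones. Gclc was lower in gated naive DNT barcodes, at -0.71 and -1.04, against 0.657 and 0.079 in activated ones. Several of the activated differences are within counting error: the exact conditional 95% intervals of the ratio were 0.788 to 1.05 and 0.871 to 1.04 for Cd160.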

How the results depend on the processing

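The 638 rises and 714 falls rest on the library block: with no replicate block 0 rose, 0 fell and 0 of the 30 leading genes passed, all 30 keeping their direction. The block is part of the design, since both sums of a library share cells, sort and kit. Thinning to 1500 UMIs after the rule left 320 rises and 316 falls, applying the rule after thinning 172 and 262, and DESeq2 159 and 188; the other edgeR settings gave 634 to 860 rises and 670 to 923 falls with all 30 leading genes in their direction, of which 22 (without the top 5% of UMIs) to 30 passed. With 1 library left out no test is possible: without replicate 1, 637 rises and 714 falls kept their sign, and without replicate 2, 631 and 705; the 30 leading genes did so by their choice. Signs turned for Top2a when thinned after the rule (0.051). With the rule applied after thinning they turned for Top2a (0.396), Gzmb (0.092), Hcst (-0.024), Il21r (-0.062), Ly6c2 (-0.056), Rpl13 (-0.093), Rpl23 (-0.122), Rpl32 (-0.120), Rps14 (-0.075) and Rps18 (-0.059). Against others with neither gene Rgs2 turned (-0.054), and without class II barcodes, an alternative chosen after seeing the data like that on hemoglobin, Cd74 (-0.402), H2-Aa (-0.056), H2-Ab1 (-0.303) and H2-Eb1 (-0.607). The cause was not tested. Gated shares under the thinned and the 2 Fcer1g UMI rules were 18.4% and 25.8% (naive DNT replicate 1), 11.2% and 28.8% (naive DNT replicate 2), 1.51% and 9.34% (activated DNT replicate 1), 6.60% and 20.3% (activated DNT replicate 2), 0.402% and 0.422% (TCRab), 0.281% and 0.409% (CD8) and 0.0603% and 0.0599% (CD4). Under the stricter barcode filter (500 genes or more, mitochondrial UMIs up to 5%) the naive DNT replicate 2 share was 41.1%. Depth limits the rule itself: a barcode without a UMI of a gene may still express it.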

Other observations

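Markers of further cell kinds were measured in the same test. Of 7 tested regulatory T cell markers Ikzf2 and Tnfrsf18 rose and Il2ra, Ctla4 and Izumo1r fell. Of 8 innate lymphoid cell markers 7 fell, and Kit, the stem cell factor receptor gene, rose to 3.18 and 5.46 scaled CPM in members, against 1.33 and 2.56 in others. All 3 tested CD4 T cell markers fell, St8sia6 by 2.91 on the log2 scale. Of 4 CD8 T cell markers Runx3 and Nkg7 rose and Cd8b1 fell, by 2.11. Sdc1, a plasma cell marker, fell by 2.57. Among 8 tested monocyte and macrophage markers 1 rose (Tyrobp) and 4 fell, among 8 neutrophil markers 0 rose and 2 fell, and among 7 dendritic cell markers Ccr9 fell.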
